A study of Mus musculus with 16 samples.

Results

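The 10 genes Cdkn1a, Mdm2, Ccng1, Bax, Bbc3, Trp53inp1, Sesn1, Gdf15, Phlda3 and Btg2, known as transcriptional targets of the tumour suppressor p53 were followed in mouse retina. They were taken by gene name from a table of 54532 genes, and all 10 were found. FPKM, the unit of that table, is a fragment count scaled for gene length and library size. Tests were run on the 14953 genes that reached 1 FPKM in 4 or more libraries. These included 9 of the 10, and Gdf15 was too low.

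The RNA came from whole retinas of the BALBc and C57 mouse strains at 12 days of age, with 4 libraries in each of 4 groups. BALBc hyperoxia and C57 hyperoxia mice breathed 75% oxygen from day 7 to day 12 after a first week in room air, the vessel-loss phase of oxygen-induced retinopathy, while BALBc normoxia and C57 normoxia mice stayed in room air. The labels name no allele or drug, and the study set a strain resistant to the retinopathy against a susceptible one without saying which is which. Nothing in the labels states that each library is a separate animal. The p-values therefore reflect library-to-library spread, which may be technical.

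In unstressed cells the p53 protein is kept low by the ubiquitin ligase Mdm2, itself the product of a p53 target. DNA damage and other stresses stabilise p53, which then binds pairs of short half-sites in DNA and raises genes that halt the cell cycle, start mitochondrial cell death or temper metabolism. In the retina p53 and its death-promoting target Bbc3 (PUMA) are known from studies of neuron loss. Most p53 control is at the protein level, which RNA libraries do not measure.

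Libraries held between 16.7 and 29.7 M (mega) whole reads, recovered from the FPKM steps. All 8 rod photoreceptor markers were detected in every library, with a summed level between 3671 and 11406 FPKM. Some features of the libraries did not follow the groups evenly. All 4 C57 hyperoxia libraries had the female transcript Xist at 10 FPKM or more and the Y-linked Ddx3y below 0.1 FPKM, whereas 3 C57 normoxia libraries had Xist below 1 FPKM and the other one held both transcripts. In BALBc hyperoxia 2 libraries were of the first kind, 1 had Xist below 1 FPKM and 1 held both, and in BALBc normoxia the numbers were 1, 2 and 1. Summed lens markers reached 2648 FPKM in C57 hyperoxia replicate 3 and were 0.446 FPKM in replicate 1 of that group.

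Sequences before the starts of Cdkn1a and Ccng1 are shown because these are the members whose promoter windows matched a p53 response element under the 1-mismatch rule below. Both genes differed between the strains. RefSeq (GRCm38.p6, a C57BL/6J assembly) gave 14 windows of 300 bases, 250 before to 50 after a start, for 9 members. The element was searched by its consensus of a pair of adjacent half-sites, allowing 1 mismatch over 20 bases, a form that reads the same on both strands. This rule was chosen after the matches were seen. It matched 2 of the 14 member windows, 1 each of Cdkn1a and Ccng1, and 29 of all 32851 windows (0.0883%). The rule of a pair of exact half-sites with 0 to 13 bases between them matched 24 of all windows (0.0731%) and only 1 of the members' windows, that of Cdkn1a. Its exact half-sites were GGACTAGCTT at -73 to -64 and GAACATGTCT at -51 to -42. The first of these lies outside the pair printed in capitals below, which has 1 mismatch. A single exact half-site was commoner, in 8.36% of all windows and in 1 window each of Bax, Ccng1, Cdkn1a, Mdm2 and Sesn1. Printed 5′ to 3′ are the 250 bases before each start, with the matched pair in capitals. The Cdkn1a stretch is chr17:29090729-29090978 on the plus strand, and the Ccng1 stretch is chr11:40755287-40755536 on the minus strand.
Cdkn1a: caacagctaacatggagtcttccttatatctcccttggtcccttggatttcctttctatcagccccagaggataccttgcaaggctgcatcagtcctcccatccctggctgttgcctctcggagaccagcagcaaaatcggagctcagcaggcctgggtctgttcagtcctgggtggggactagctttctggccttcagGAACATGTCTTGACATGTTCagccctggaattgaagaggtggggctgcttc
Ccng1: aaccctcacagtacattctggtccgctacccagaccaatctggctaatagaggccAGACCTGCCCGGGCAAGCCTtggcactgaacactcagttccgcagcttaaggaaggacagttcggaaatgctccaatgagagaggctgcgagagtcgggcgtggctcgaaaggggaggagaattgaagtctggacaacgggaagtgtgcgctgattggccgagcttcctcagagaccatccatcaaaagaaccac

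The Cdkn1a pair covers chr17:29090928-29090947, positions -51 to -32 from that start, and its first base lies 2841 bases before the gene's other RefSeq start. The Ccng1 pair covers chr11:40755462-40755481, positions -195 to -176. A match describes the letters of the reference genome. Binding was not measured, and the BALBc sequence was not used here.

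Levels of the 10 genes spanned a wide range. Averaged over the 16 libraries, the antiproliferative gene Btg2 was at 45.8 FPKM, the cyclin Ccng1 at 35.9 FPKM, the pore-forming death protein Bax at 22.4 FPKM and the sestrin Sesn1 at 21.9 FPKM. Mdm2 followed at 14.98 FPKM, Trp53inp1 at 10.7 FPKM and Bbc3 at 6.15 FPKM. Phlda3, an inhibitor of Akt signalling, was at 2.83 FPKM, the cell cycle inhibitor Cdkn1a (p21) at 2.77 FPKM and the secreted stress cytokine Gdf15 at 0.517 FPKM. Neighbours in this order mostly kept it from library to library, each exceeding the next in at least 14 of 16. The exceptions were Bax over Sesn1, in 8 of 16, and Phlda3 over Cdkn1a, in 10 of 16. Cdkn1a was below Phlda3 in 8 of 8 BALBc libraries and above it in 6 of 8 C57 libraries. The ratio of the highest to the lowest library was 1.34 for Mdm2, the steadiest member, and reached 3.99 for Bbc3, 4.73 for Cdkn1a and 4.81 for Gdf15.

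**Figure D1:**
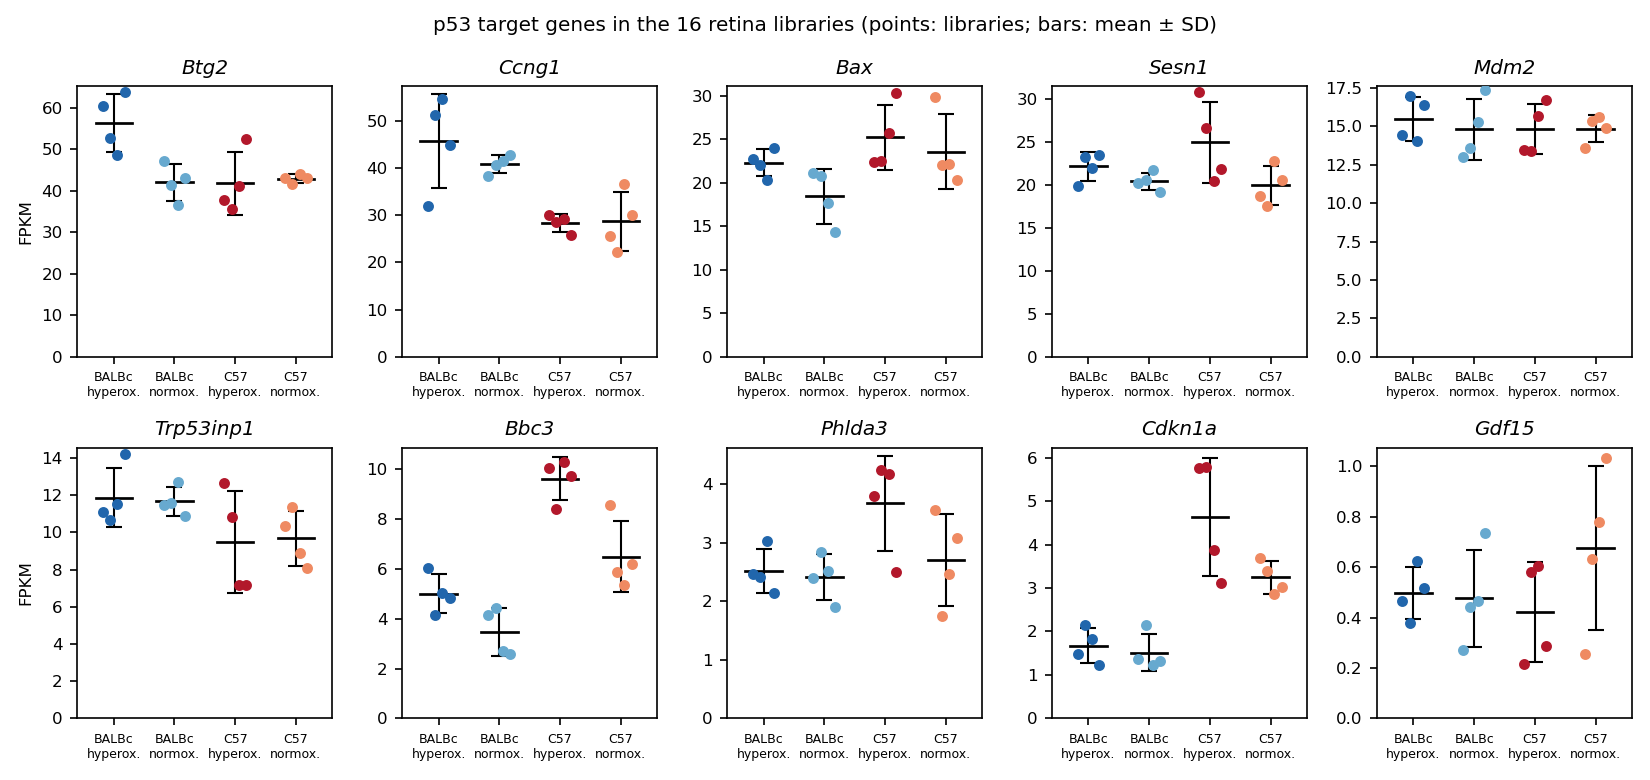
FPKM of each p53 target gene in every library of BALBc hyperoxia, BALBc normoxia, C57 hyperoxia and C57 normoxia. Points are libraries, and bars give the mean and SD of 4. For Cdkn1a all 8 BALBc points, up to 2.15 FPKM, lie under all 8 C57 points, the lowest of which is 2.86 FPKM.

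Cdkn1a and Bbc3 were lower in BALBc than in C57 retinas in both oxygen conditions, and Ccng1 was higher. Cdkn1a was at 36.0% of the C57 mean in hyperoxia and at 46.6% in normoxia, and Bbc3 at 52.0% and 53.4%. Ccng1 was 1.61-fold higher in BALBc than in C57 in hyperoxia and 1.42-fold in normoxia. In hyperoxia Btg2 was also called higher in BALBc. Bax, Mdm2, Sesn1, Trp53inp1 and Phlda3 passed in neither condition. The reference build named for the alignment of both strains is a C57 assembly. Whether aligning BALBc reads to it changed the BALBc values was not tested. The same limit holds for every strain difference given here.

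Cdkn1a (ENSMUSG00000023067, GRCm38 chromosome 17, 29090976 to 29100727) encodes p21, which blocks cyclin-dependent kinases and is the best known arrest gene of p53. In hyperoxia it was 1.47, 2.14, 1.83 and 1.23 FPKM in BALBc replicates 1 to 4, against 5.76, 5.79, 3.87 and 3.11 FPKM in C57 replicates 1 to 4. Every BALBc library was below every C57 library, a separation of the groups that 21.4% of all tested genes showed (log2 difference -1.22, SE 0.19, limma adjusted p = 0.000503). In normoxia it was 1.36, 2.15, 1.23 and 1.31 FPKM in BALBc, against 3.69, 3.40, 2.86 and 3.03 FPKM in C57. These groups did not overlap either, as for 18% of all tested genes (log2 difference -0.91, SE 0.19, adjusted p = 0.00714). The values rest on 81 to 169 recovered reads per BALBc library and 227 to 382 per C57 library. The gene shares 273 exon bases with AC167363.2, which was at most 0.103 FPKM. Whether the counting used strand is not given in the sources used here.

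Bbc3 (ENSMUSG00000002083, GRCm38 chromosome 7, 16308393 to 16318205) encodes PUMA, a BH3-only protein that frees Bax and Bak1 to permeabilise mitochondria. In hyperoxia it was 6.02, 4.14, 5.02 and 4.82 FPKM in BALBc, against 10.1, 8.40, 10.3 and 9.73 FPKM in C57 (log2 difference -0.89, SE 0.17, adjusted p = 0.0020). In normoxia it was 4.13, 4.43, 2.71 and 2.58 FPKM in BALBc, against 8.58, 5.86, 5.34 and 6.18 FPKM in C57 (-0.83, SE 0.17, adjusted p = 0.00485). The groups did not overlap in either condition. The strain differences of Cdkn1a and of Bbc3 each passed in both conditions under all 24 alternative settings tried, which included leaving out each library in turn.

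Ccng1 (ENSMUSG00000020326, GRCm38 chromosome 11, 40748552 to 40755311) encodes cyclin G1, which recruits a phosphatase to Mdm2. In hyperoxia it was 32.0, 51.3, 54.7 and 44.9 FPKM in BALBc, against 30.05, 28.6, 29.2 and 25.7 FPKM in C57 (log2 difference 0.65, SE 0.16, adjusted p = 0.00886). In normoxia it was 38.3, 40.7, 41.6 and 42.7 FPKM in BALBc, against 25.7, 22.3, 36.7 and 30.1 FPKM in C57 (0.52, SE 0.16, adjusted p = 0.0484). BALBc libraries were above all C57 libraries in both conditions, though BALBc hyperoxia replicate 1 exceeded the highest C57 hyperoxia library only slightly. The hyperoxia call passed in all 24 alternative settings. The normoxia call passed in 9 of 24, with a highest adjusted p of 0.148 and log2 differences between 0.29 and 0.65, and it was lost with a sex covariate (adjusted p = 0.0834).

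Rod marker levels moved with Ccng1 in some groups. The summed FPKM of the 8 rod genes in replicates 1 to 4 was 4612, 10671, 10759 and 7316 in BALBc hyperoxia, 8718, 8840, 9026 and 10392 in BALBc normoxia, 6514, 6353, 5837 and 6640 in C57 hyperoxia, and 4124, 3671, 11406 and 9137 in C57 normoxia. Ccng1 was lowest in the BALBc hyperoxia library with the lowest rod sum, and in BALBc normoxia and C57 normoxia the same held. In BALBc normoxia the rod sum and Ccng1 rose in the same order over replicates 1 to 4. C57 hyperoxia differed, with its lowest Ccng1 in replicate 4, which had the highest rod sum of that group. Between the strains, 8 of 8 rod markers had a log2 difference above 0 in both conditions, higher in BALBc. The medians were 0.35 in hyperoxia, with Nr2e3 called, and 0.32 in normoxia, with 0 called, and the rod sums overlapped in both. With rod expression as a covariate, a setting added after seeing the data, the Ccng1 strain difference was 0.46 in hyperoxia (adjusted p = 0.00101) and 0.29 in normoxia (adjusted p = 0.0328). The Cdkn1a differences were -1.21 and -0.90 (adjusted p = 0.00115 and 0.0158), and those of Bbc3 were -0.77 and -0.69 (adjusted p = 0.00364 and 0.0144). In these bulk libraries, fewer cells of a type and less RNA per cell cannot be told apart.

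**Figure D2:**
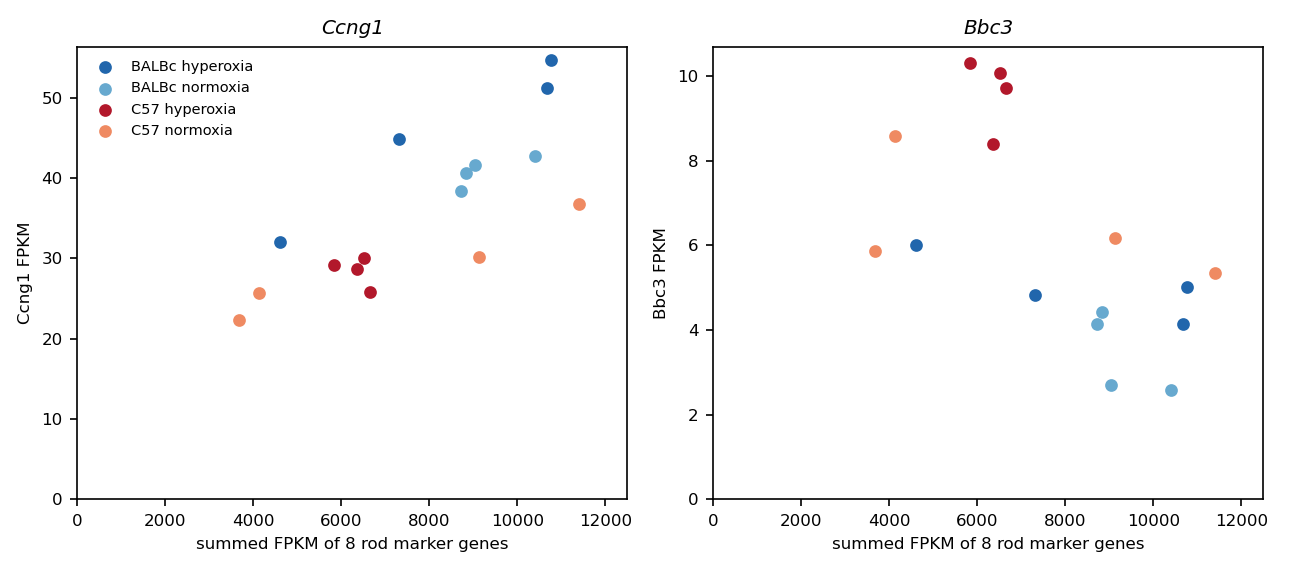
Ccng1 FPKM (left) and Bbc3 FPKM (right) against the summed FPKM of 8 rod marker genes, 1 point per library, coloured by group. BALBc hyperoxia replicate 1, with a rod sum of 4612 FPKM, has that group's lowest Ccng1 (32.0 FPKM) and highest Bbc3 (6.02 FPKM).

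Markers of several other cell types also differed between the strains. All 5 amacrine markers were detected in every library, and their sum was 37.2 to 63.6 FPKM in BALBc hyperoxia against 75.4 to 86.3 FPKM in C57 hyperoxia, and 60.6 to 63.9 FPKM in BALBc normoxia against 66.4 to 83.1 FPKM in C57 normoxia. The 7 endothelial markers, none at 0, summed to 19.8 to 31.8 FPKM in BALBc hyperoxia against 35.6 to 40.3 FPKM in C57 hyperoxia, and to 34.6 to 43.4 FPKM in BALBc normoxia against 45.9 to 63.7 FPKM in C57 normoxia. In normoxia 1 amacrine and 1 endothelial marker had a log2 difference above 0, against the direction of their sums. The 5 Müller glia markers, none at 0, summed to 355.8 to 497.0 FPKM in BALBc hyperoxia against 506.3 to 771.2 FPKM in C57 hyperoxia. In normoxia their sum was higher in BALBc, at 567.6 to 599.3 FPKM against 457.1 to 553.0 FPKM in C57. Singly, 4 Müller markers were below 0 and 1 above in hyperoxia. In normoxia 3 were above 0 and 2 below (median log2 difference 0.08, with 0 called). The 4 mural markers summed to 20.2 to 26.9 FPKM in BALBc normoxia against 31.3 to 35.8 FPKM in C57 normoxia, and overlapped in hyperoxia. The 4 pigment epithelium markers, with at most 1 at 0 in a library, summed to 31.5 to 46.3 FPKM in BALBc normoxia against 7.89 to 25.4 FPKM in C57 normoxia, and to 15.8 to 111.1 FPKM in BALBc hyperoxia against 11.2 to 32.0 FPKM in C57 hyperoxia. The 4 erythroid markers summed to 54.2 to 260.9 FPKM in BALBc normoxia against 29.4 to 61.9 FPKM in C57 normoxia, with Hba-a2 and Hbb-bt called higher in BALBc. The 5 cone markers summed to 229.6 to 352.5 FPKM in BALBc hyperoxia against 176.1 to 216.3 FPKM in C57 hyperoxia, and overlapped in normoxia. Of these, Arr3, Opn1sw and Pde6h were called higher in BALBc in hyperoxia, and Opn1sw in normoxia. In each condition 4 cone markers had a log2 difference above 0 and 1 was below. The microglia sums overlapped in both conditions. Their markers C1qa and P2ry12 were called higher in BALBc in hyperoxia, and P2ry12 in normoxia. Of the 5 tested microglia markers, 5 were above 0 in hyperoxia, and 4 above and 1 below in normoxia. The part of these cell types in the strain differences of Cdkn1a, Bbc3 and Ccng1 was not tested.

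Btg2 (ENSMUSG00000020423, GRCm38 chromosome 1, 134075170 to 134079120), an antiproliferative cofactor of mRNA deadenylation, was 60.4, 52.7, 48.7 and 63.8 FPKM in BALBc hyperoxia, against 37.8, 35.5, 41.2 and 52.6 FPKM in C57 hyperoxia. It was higher in BALBc (log2 difference 0.44, SE 0.12, adjusted p = 0.0175), although C57 replicate 4 lay within the BALBc range. This call passed in 19 of 24 alternative settings and was lost with a sex covariate (adjusted p = 0.066), with voom on recovered reads (adjusted p = 0.105), and without BALBc hyperoxia replicate 4 (0.0576) or C57 hyperoxia replicate 1 (0.0544) or 2 (0.0591). In normoxia Btg2 averaged 42.1 ± 4.38 FPKM in BALBc and 43.0 ± 1.07 FPKM in C57 (SD, n = 4 each, adjusted p = 0.897).

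limma thus called 4 of the 9 tested members between the strains in hyperoxia, 2 higher and 2 lower in BALBc, where 22.6% of all tested genes were called (11.8% higher and 10.8% lower). In normoxia it called 3, 1 higher and 2 lower, where 9.08% of all tested genes were called (4.7% higher and 4.38% lower). The median log2 difference over the 9 members was -0.15 in hyperoxia and -0.04 in normoxia, against 0.01 over all tested genes in each. Among the members that did not pass, Phlda3 (chromosome 1, 135766119 to 135769136) came closest in hyperoxia, at 2.47, 2.41, 3.03 and 2.15 FPKM in BALBc against 3.79, 4.25, 4.17 and 2.50 FPKM in C57 (log2 difference -0.46, SE 0.19, adjusted p = 0.0911). C57 replicate 4 fell within the BALBc range. The difference passed in 1 of 24 alternative settings, without that library (-0.61, adjusted p = 0.0268), and its highest adjusted p was 0.21. In normoxia Bax (chromosome 7, 45461697 to 45466898) averaged 18.5 ± 3.15 FPKM in BALBc and 23.6 ± 4.28 FPKM in C57 (SD, n = 4 each, log2 difference -0.35, adjusted p = 0.146).

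**Figure D3:**
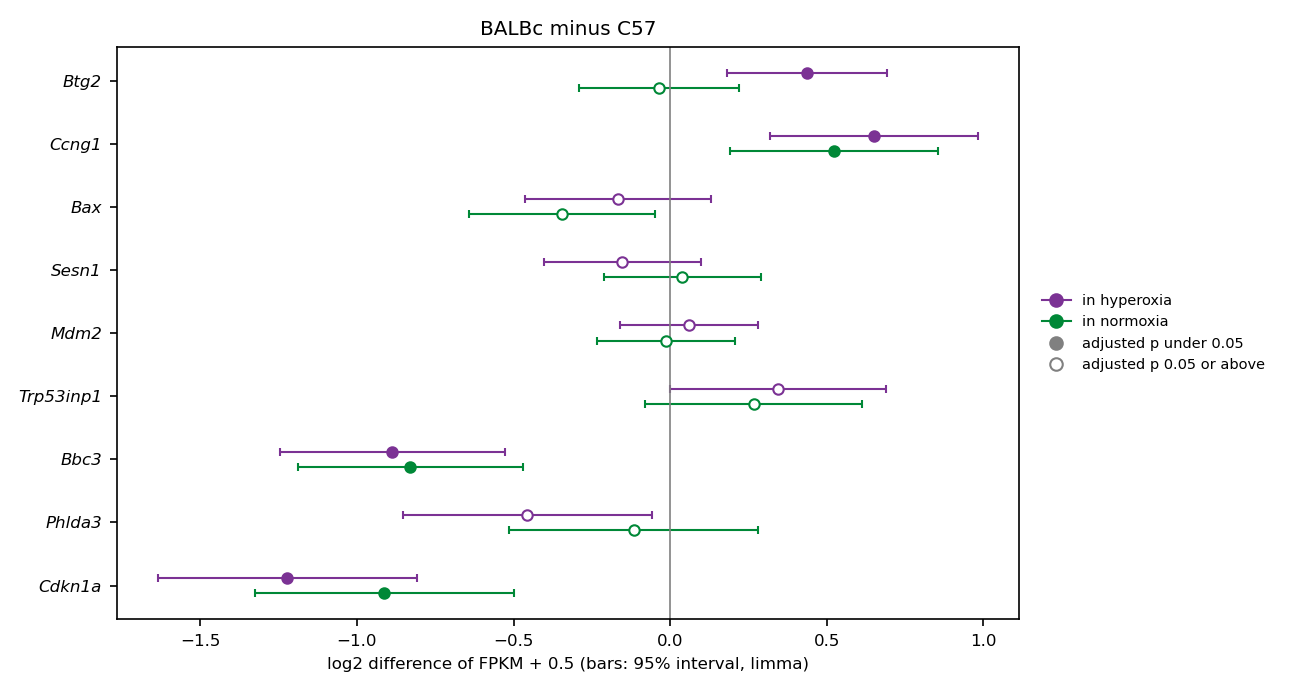
Log2 difference of FPKM + 0.5, BALBc minus C57, for the 9 tested members in hyperoxia and in normoxia, with 95% intervals from limma. Filled points have an adjusted p under 0.05. Cdkn1a lies at -1.22 and -0.91 and Bbc3 at -0.89 and -0.83, whereas Ccng1 lies at 0.65 and 0.52.

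Mdm2 (ENSMUSG00000020184, GRCm38 chromosome 10, 117688875 to 117710758), the negative regulator of p53, varied least. It was 14.5, 16.9, 14.0 and 16.4 FPKM in BALBc hyperoxia and 12.97, 13.6, 15.3 and 17.4 FPKM in BALBc normoxia. In C57 it was 13.5, 13.4, 15.7 and 16.7 FPKM in hyperoxia and 13.6, 15.3, 15.6 and 14.9 FPKM in normoxia. All 4 groups overlapped. The 95% interval of its log2 difference between the strains ran from -0.16 to 0.28 in hyperoxia and from -0.23 to 0.21 in normoxia, and that of the oxygen response averaged over the strains ran from -0.13 to 0.18. Trp53, the p53 transcript itself, averaged 4.81 ± 1.70 FPKM in BALBc hyperoxia and 5.003 ± 0.835 FPKM in BALBc normoxia, and 4.38 ± 0.717 FPKM in C57 hyperoxia and 5.95 ± 0.465 FPKM in C57 normoxia (SD, n = 4 each). It passed in none of the 6 comparisons, although its C57 groups did not overlap, as for 7.63% of all tested genes (adjusted p = 0.368).

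For oxygen, Bbc3 was the only member that passed, and only where the responses of both strains were averaged. It was 1.44-fold higher in hyperoxia than in normoxia in BALBc and 1.48-fold in C57. The averaged log2 change was 0.52 (SE 0.12, 95% interval 0.27 to 0.78, adjusted p = 0.0386), where 1.79% of all tested genes were called. Within each strain the hyperoxia and normoxia libraries overlapped, through BALBc hyperoxia replicate 2 (4.14 FPKM) and C57 normoxia replicate 1 (8.58 FPKM). Alone, neither strain passed, at 0.49 in BALBc (adjusted p = 0.198) and 0.55 in C57 (adjusted p = 0.164). The averaged call was fragile. It passed in 11 of 24 alternative settings, with log2 changes between 0.47 and 0.71, and was lost with no filter on low values (adjusted p = 0.0823), with a sex covariate (0.0703), with voom on recovered reads (0.0967) and without any 1 of 10 of the 16 libraries. With the rod covariate it was 0.51 (adjusted p = 0.00955). The sex of the libraries, given above, moved with oxygen in C57, and in C57 these 2 cannot be told apart. Vessel markers moved with oxygen as well. Averaged over the strains, 7 of 7 endothelial markers were below 0 (median log2 change -0.69), with Cdh5, Cldn5 and Tek called lower, and the endothelial sums given above did not overlap between hyperoxia and normoxia in either strain. The mural sum was 5.22 to 20.05 FPKM in BALBc hyperoxia against 20.2 to 26.9 FPKM in BALBc normoxia, and 12.9 to 21.2 FPKM in C57 hyperoxia against 31.3 to 35.8 FPKM in C57 normoxia, and Rgs5 was called lower. All 4 erythroid markers had an averaged log2 change below 0 (median -0.89, where limma called 0). At an unadjusted limma p under 0.05 there were 4, where 2594 of all 14953 tested genes reached that level. The median change of these markers was -1.77 in BALBc, with 4 at an unadjusted p under 0.05 by limma, and -0.11 in C57, with 0. The part of these cells in the Bbc3 change was not tested.

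In the single-strain comparisons limma called 0 of the 9 members, against 0.161% of all tested genes in BALBc and 0.334% in C57, and voom also called 0. At an unadjusted p under 0.05, 2 members were higher in BALBc hyperoxia, Bbc3 and Btg2, where 2118 of all 14953 tested genes reached that level in either direction. In C57 hyperoxia 3 were higher, Bbc3, Sesn1 and Cdkn1a, where 1987 did so. All 9 members had a log2 change above 0 in BALBc and 6 of 9 in C57, with medians of 0.11 and 0.10, against -0.0048 and 0.0083 over all genes. The strains' log2 responses did not differ for any member past the threshold (limma, 0 of 9 called and 0 by voom, where 0% of all tested genes were called). At an unadjusted p under 0.05 there was 1 member, where 1430 of all 14953 tested genes reached that level in either direction.

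**Figure D4:**
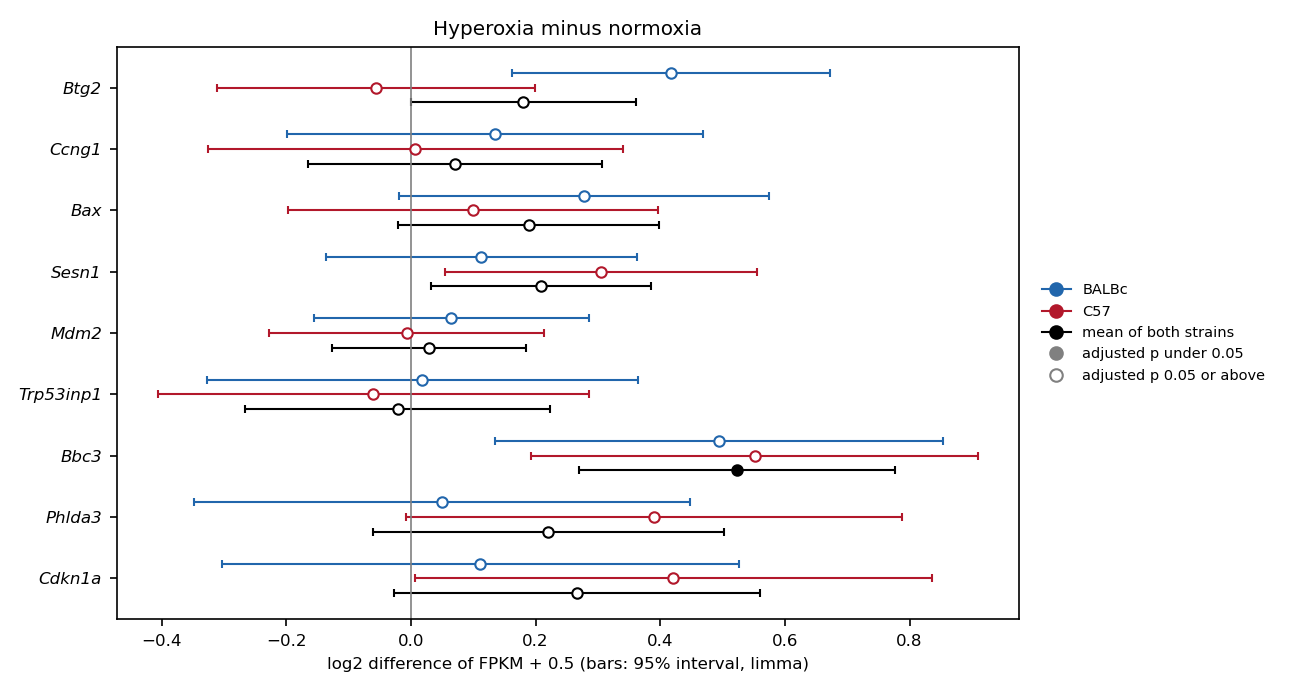
Log2 difference of FPKM + 0.5, hyperoxia minus normoxia, for the 9 tested members in BALBc, in C57 and averaged over both, with 95% intervals from limma. Filled points have an adjusted p under 0.05. The averaged Bbc3 response, 0.52, is the only filled point, and the Btg2 responses of the strains lie furthest apart relative to their error.

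Btg2 was the member whose strains differed most in their response relative to the error. Its 4 BALBc hyperoxia libraries, given above, were all over the BALBc normoxia libraries at 47.2, 41.3, 36.6 and 43.0 FPKM, a gap that 8.82% of all tested genes showed (log2 change 0.42, SE 0.12, adjusted p = 0.133). In C57 the hyperoxia libraries lay on both sides of the normoxia libraries at 43.0, 41.6, 44.2 and 43.1 FPKM (adjusted p = 0.885). The difference of the responses was 0.47 (SE 0.17, adjusted p = 0.41) and was not called. Btg2 is also an immediate early gene, and such genes were measured beside it. The sum of 11 immediate early genes was 71.1 to 82.3 FPKM in BALBc hyperoxia against 58.6 to 65.9 FPKM in BALBc normoxia, and 67.7 to 79.9 FPKM in C57 hyperoxia against 54.4 to 64.9 FPKM in C57 normoxia. Their part in the Btg2 values was not tested.

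Sesn1 (ENSMUSG00000038332, chromosome 10, 41809935 to 41908424), a sestrin that restrains mTORC1, was 30.9, 26.7, 20.5 and 21.8 FPKM in C57 hyperoxia, against 18.8, 17.6, 22.8 and 20.6 FPKM in C57 normoxia (log2 change 0.30, SE 0.12, adjusted p = 0.266). Replicates 1 and 2 of C57 hyperoxia were above all normoxia libraries and the other replicates were not. In BALBc it averaged 22.2 ± 1.67 FPKM in hyperoxia and 20.4 ± 1.02 FPKM in normoxia (SD, n = 4 each, adjusted p = 0.712). Cdkn1a had the same uneven C57 hyperoxia group, with replicates 1 and 2 high, and its C57 response was 0.42 (SE 0.19, adjusted p = 0.37). In BALBc the Cdkn1a response had an adjusted p of 0.845, with overlapping groups.

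Trp53inp1 (ENSMUSG00000028211, chromosome 4, 11156431 to 11174379), which promotes autophagy and p53 phosphorylation, averaged 11.9 ± 1.59 FPKM in BALBc hyperoxia, 11.7 ± 0.775 FPKM in BALBc normoxia, 9.46 ± 2.75 FPKM in C57 hyperoxia and 9.67 ± 1.46 FPKM in C57 normoxia (SD, n = 4 each). The wide C57 hyperoxia spread came from 12.7 and 10.8 FPKM in replicates 1 and 2 against 7.16 and 7.18 FPKM in replicates 3 and 4. Its lowest adjusted p in the 6 comparisons was 0.139, for the strains in hyperoxia (log2 difference 0.35), which passed in 1 of 24 alternative settings, without C57 hyperoxia replicate 1 (0.49, adjusted p = 0.0387). Bax averaged 22.3 ± 1.55 FPKM in BALBc hyperoxia, 18.5 ± 3.15 FPKM in BALBc normoxia, 25.3 ± 3.73 FPKM in C57 hyperoxia and 23.6 ± 4.28 FPKM in C57 normoxia (SD, n = 4 each), with an adjusted p of 0.392 for oxygen in BALBc and 0.811 in C57. It shares 192 exon bases with Gm45808, which was at most 0.0683 FPKM. Gdf15 (ENSMUSG00000038508, chromosome 8, 70629393 to 70632456) rested on 7 to 43 reads per library and ran from 0.377 to 0.623 FPKM in BALBc hyperoxia, 0.269 to 0.734 in BALBc normoxia, 0.215 to 0.603 in C57 hyperoxia and 0.255 to 1.03 in C57 normoxia. All these ranges overlapped, and no difference was detectable at this depth.

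A further list of 36 p53 targets, of which 27 were tested, was read beside the members. Between the strains in hyperoxia 3 were higher in BALBc and 5 lower, and in normoxia 1 was higher and 3 lower, beside the 22.6% and 9.08% of all tested genes called in these comparisons. The median log2 difference of the 27 was -0.21 in hyperoxia and -0.08 in normoxia. Zfp365, a zinc finger gene that in human cells guards fragile sites, had the largest difference of these genes. It was 31.5, 56.0, 53.1 and 42.2 FPKM in BALBc hyperoxia, against 12.3, 11.8, 15.8 and 15.7 FPKM in C57 hyperoxia (log2 difference 1.66, SE 0.19, adjusted p = 1.97e-05). In normoxia the difference was 1.40 (adjusted p = 0.000133), and the groups did not overlap in either condition. Its lowest BALBc hyperoxia value was in replicate 1, which had the lowest rod sum of that group, whereas in C57 hyperoxia its highest value was in replicate 3, the library with the lowest rod sum there.

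The other higher genes in BALBc hyperoxia were Rps27l, a ribosomal protein gene whose reads could be split with its close paralog Rps27, and the translesion polymerase Polk, each with a log2 difference of 0.55 (adjusted p = 0.00783 and 0.00357). Lower in BALBc hyperoxia were the kinase Plk2 (-0.85, adjusted p = 0.000463), the heparan sulphatase Sulf2 (-0.78, adjusted p = 0.00334), Psrc1 (-0.69, adjusted p = 0.0259), the sestrin Sesn2 (-0.68, adjusted p = 0.00107) and the adenylate kinase Ak1 (-0.49, adjusted p = 0.033). In normoxia the lower genes were Rprm, a G2 arrest gene (-0.85, adjusted p = 0.0185), Cgref1 (-0.60, adjusted p = 0.0416) and Ckap2 (-0.43, adjusted p = 0.0419). The calls of Cgref1 and Ckap2 passed in 13 and 9 of 24 alternative settings, and those of Ak1, Psrc1 and Rprm in 18, 20 and 21.

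**Figure D5:**
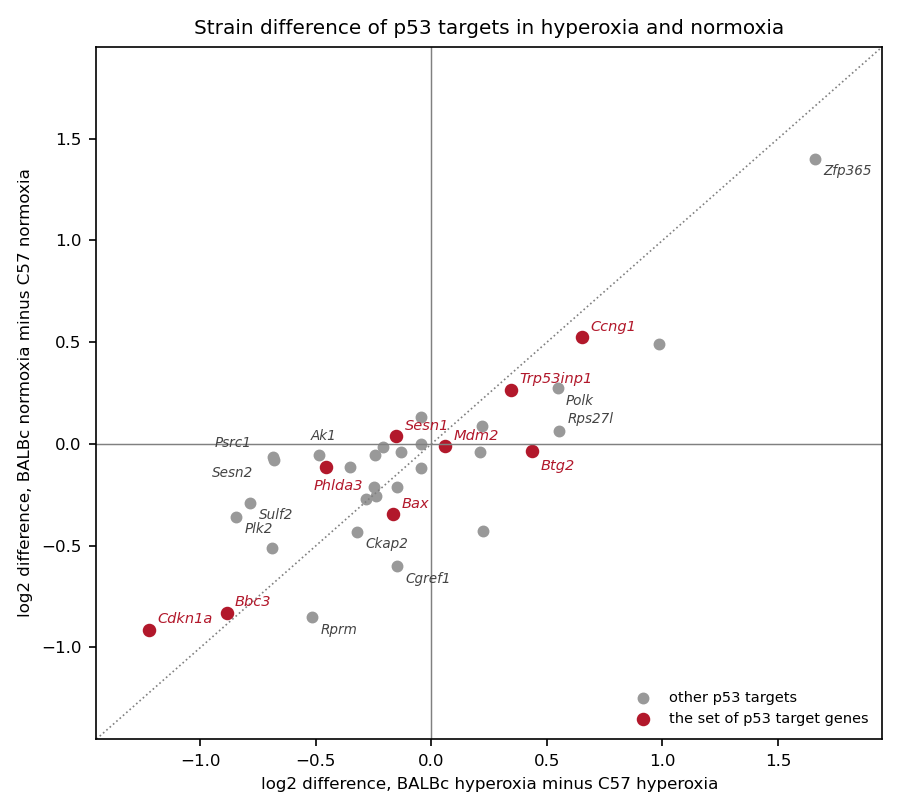
Log2 difference BALBc minus C57 in hyperoxia (x axis) and in normoxia (y axis) for the 9 tested members (red) and 27 other p53 targets (grey). The dotted line marks equal differences; Cdkn1a (-1.22, -0.91) and Bbc3 (-0.89, -0.83) lie at the lower left and Zfp365 (1.66, 1.40) at the upper right.

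For oxygen, 1 of the 27 passed in each single strain, and they were different genes. Of all tested genes, 0.161% were called in BALBc and 0.334% in C57. Rps27l was 40.5, 38.1, 45.3 and 54.7 FPKM in BALBc hyperoxia, against 27.7, 29.4, 23.98 and 24.3 FPKM in BALBc normoxia (log2 change 0.74, SE 0.13, adjusted p = 0.0374). Sesn2, a paralog of Sesn1 that is also raised by the integrated stress response, was 10.9, 9.81, 7.73 and 7.82 FPKM in C57 hyperoxia, against 5.58, 5.39, 5.56 and 5.93 FPKM in C57 normoxia (log2 change 0.63, SE 0.12, adjusted p = 0.0454). Both sets of libraries were fully separated, as for 8.82% of all tested genes in BALBc and 7.63% in C57. The call of Rps27l in BALBc passed in 13 of 24 alternative settings and that of Sesn2 in C57 in 8 of 24. With a sex covariate 0 genes were called for oxygen in C57, so the Sesn2 call was lost. Sex and oxygen cannot be told apart in C57. The strains' responses were not called different for Rps27l (adjusted p = 0.428) or Sesn2 (adjusted p = 0.307). Averaged over the strains, Rps27l rose by 0.50 on the log2 scale (limma adjusted p = 0.0186), where 1.79% of all tested genes were called.

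Among 18 regulators of p53, 13 were tested. In BALBc 1 was called higher and 1 lower in hyperoxia, and 1 lower in normoxia. Of all tested genes, 22.6% and 9.08% were called in these comparisons. Cop1, a ubiquitin ligase for p53, was lower in BALBc in both conditions. It averaged 2.20 ± 0.183 FPKM in BALBc hyperoxia and 3.40 ± 0.459 FPKM in C57 hyperoxia, and 2.01 ± 0.345 FPKM in BALBc normoxia and 3.59 ± 0.279 FPKM in C57 normoxia (SD, n = 4 each, adjusted p = 0.00505 and 0.00075). The DNA damage kinase Atm was higher in BALBc hyperoxia (0.39, adjusted p = 0.032), a call that passed in 17 of 24 alternative settings. No regulator passed for oxygen by limma. At an unadjusted limma p under 0.05, 1 was higher in BALBc, and 1 was higher and 2 lower in C57. Of all 14953 tested genes, 2118 reached that level in BALBc and 1987 in C57.

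Of 13 BCL2 family and caspase genes, 11 were tested. In hyperoxia 3 were lower in BALBc and in normoxia 2, where 10.8% and 4.38% of all tested genes were called lower, and 0 were called higher. Casp9, the initiator caspase downstream of mitochondrial release, averaged 3.87 ± 0.453 FPKM in BALBc hyperoxia and 5.93 ± 0.313 FPKM in C57 hyperoxia (adjusted p = 0.00203), and 3.74 ± 0.455 FPKM in BALBc normoxia and 5.44 ± 0.721 FPKM in C57 normoxia (adjusted p = 0.00941; SD, n = 4 each). Diablo, an antagonist of caspase inhibitors, and Bak1, the partner of Bax, were lower in BALBc hyperoxia (log2 differences -0.51 and -0.34, adjusted p = 0.042 and 0.022). Bid, a BH3-only activator, was lower in BALBc normoxia (log2 difference -0.71, adjusted p = 0.0318). The Casp9 calls passed in all 24 alternative settings, that of Diablo in 13, that of Bak1 in 20 and that of Bid in 15. The median of the 11 was -0.15 in hyperoxia and -0.13 in normoxia. None of the 11 passed for oxygen by limma. At an unadjusted limma p under 0.05, 2 were higher and 1 lower in BALBc, and 1 was lower in C57. Of all 14953 tested genes, 2118 reached that level in BALBc and 1987 in C57.

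The 12 tested paralogs of the members, of 13 listed, included Ccng2, higher in BALBc hyperoxia by 0.37 (adjusted p = 0.0452). That call passed in 10 of 24 alternative settings, with a highest adjusted p of 0.284. Sesn2 and Bak1, given above, were called lower in BALBc hyperoxia, where 22.6% of all tested genes were called. In normoxia 0 paralogs passed, where 9.08% of all tested genes were called. At an unadjusted limma p under 0.05, 1 paralog was higher, where 3419 of all 14953 tested genes reached that level. Of 9 integrated stress genes, 8 were tested, and Sesn2 was the only one called. Its calls, already given above, were for oxygen in C57 and between the strains in hyperoxia, where 0.334% and 22.6% of all tested genes were called. Of the 11 immediate early genes, 7 were tested. Egr1 averaged 14.0 ± 4.12 FPKM in BALBc hyperoxia and 6.43 ± 1.22 FPKM in BALBc normoxia, and 14.6 ± 6.55 FPKM in C57 hyperoxia and 7.77 ± 0.512 FPKM in C57 normoxia (SD, n = 4 each). Averaged over the strains, Egr1 rose by 0.90 on the log2 scale (adjusted p = 0.023) and Ier2 by 0.31 (adjusted p = 0.0402). These calls passed in 21 and 8 of 24 alternative settings, and the highest adjusted p of Ier2 was 0.342. Between the strains Ier2 was higher in BALBc in hyperoxia and in normoxia (0.44 and 0.61), Junb was higher in normoxia (0.40), and Nr4a1 was lower in both (-0.45 and -0.60), all past the threshold. Of these, Junb and the hyperoxia difference of Nr4a1 each passed in 16 of 24 alternative settings.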

How the data were processed

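Per the labels' protocols, TRIzol RNA went into NEBNext Ultra II libraries. The submitters' processing notes name HISAT2 2.0.5, featureCounts 1.5.0-p3 and the build GRCm38 (mm10). The authors deposited FPKM per gene for 16 libraries. The library size behind it is not given in the sources used here; recovered reads over the size implied by the FPKM steps ran from 0.884 to 1.15. With GENCODE M21 exon lengths, 97.1% to 97.5% of values up to 1000 reads were whole within 0.01 reads. Log2(FPKM + 0.5) was tested with limma 3.58.1 (R 4.3.3) in 1 fit of all 4 groups with a mean-variance trend, adjusted by Benjamini-Hochberg over 14953 genes, two-sided, threshold 0.05. The 6 comparisons were oxygen in each strain, its mean and difference over the strains, and strain in each oxygen condition. Log2 changes and differences are on the log2(FPKM + 0.5) scale, which understates low genes; folds and percentages are ratios of plain mean FPKM.

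The members and all gene lists were chosen with earlier results of these data known. Named genes were the members and, from each list, every gene past the threshold in any comparison and the most abundant genes; not every one is described. Alternatives were pseudocounts of 0.1 and 1, no filter, median-ratio scaling, a replicate block, a sex covariate, voom on recovered reads, leaving out each library and, added after seeing the data, a rod covariate. The tests were run on simulated data first. The replicate numbers were not treated as pairs.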

Additional observations from a re-analysis of the deposited data

Results flagged for a closer look

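Cdkn1a in BALBc normoxia replicate 2 was 2.15 FPKM, the highest of that group and far from the other 3 libraries, at 1.36, 1.23 and 1.31 FPKM. Dixon's 95% test set it apart among 40 combinations of group and member that were checked, and chance flags about 1 in 20 groups. The value was still below every C57 library, and the strain difference of Cdkn1a in normoxia passed without this library too.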

How the results depend on the processing

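Of the called member results, the strain differences of Cdkn1a and Bbc3 in both oxygen conditions and of Ccng1 in hyperoxia passed under all 24 alternatives; Cdkn1a ran from -1.55 to -1.06 in hyperoxia and from -1.17 to -0.77 in normoxia. The number of members called for the averaged oxygen response, 1, was 0 with no filter, with the sex covariate and with voom. Counts over all tested genes moved more. In BALBc, 24 genes were called for oxygen, against 8 with no filter, 39 with the sex covariate, 138 with voom and 843 with the rod covariate. In C57, 50 were called, against 9 with no filter, 32 with a pseudocount of 0.1, 1 with the replicate block, 0 with the sex covariate (1077 at an unadjusted p under 0.05), 14 with voom and 419 with the rod covariate. Averaged over the strains, 268 were called, against 99 with no filter, 15 with the sex covariate and 1394 with the rod covariate. The strains in hyperoxia gave 3380 genes, against 2102 with the sex covariate. The difference of responses gave 0, against 5 with the rod covariate. The averaged oxygen response of Mdm2, not called, turned from 0.03 to -0.066 with the sex covariate and -0.0018 with voom, and ran from -0.00028 to 0.068 when libraries were left out. The cause of these shifts was not tested.

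Leaving out each library in turn, members called ranged from 3 to 5 for the strains in hyperoxia, from 2 to 3 in normoxia, from 0 to 1 for the averaged response and stayed at 0 for the others. Genes called ranged from 2326 to 4244, from 903 to 1502 and from 89 to 484 for those, from 1 to 284 for oxygen in BALBc, from 0 to 85 in C57 and from 0 to 1 for the difference. With voom the split was 97 higher and 41 lower in BALBc, against 13 and 11, and 1207 higher and 2078 lower for the strains in hyperoxia, against 1769 and 1611, where the median of all genes moved to -0.11 and that of the members to -0.26. Same-numbered libraries did not deviate together (correlations from -0.501 to 0.401 over 24 pairs, 6 over 0.1), so the numbers were not read as pairs, and the block changed no member call. Gdf15 rested on 7 to 43 reads per library and was too low to test.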

Other observations

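Within C57 hyperoxia, replicates 1 and 2 stood apart from replicates 3 and 4 for several p53 targets, a split noticed after the values were seen and not tested. In replicates 1 to 4, Cdkn1a was 5.76, 5.79, 3.87 and 3.11 FPKM, Trp53inp1 was 12.7, 10.8, 7.16 and 7.18 FPKM, and Sesn2 was 10.9, 9.81, 7.73 and 7.82 FPKM, with replicates 1 and 2 the higher ones. Zfp365 went the other way, at 12.3, 11.8, 15.8 and 15.7 FPKM, as did Bax, at 22.4, 22.6, 25.7 and 30.4 FPKM, and Mdm2, at 13.5, 13.4, 15.7 and 16.7 FPKM. The summed lens markers of the same libraries were 0.446, 1.80, 2648 and 205.5 FPKM, and the summed rod markers were 6514, 6353, 5837 and 6640 FPKM. Müller glia markers, at 730.3, 771.2, 534.5 and 506.3 FPKM, also separated replicates 1 and 2 from replicates 3 and 4. So did erythroid markers, at 29.6, 29.7, 51.6 and 78.5 FPKM, and the bipolar, ganglion, microglia, proliferating and pigment epithelium sums. The rod, cone, amacrine, astrocyte, endothelial, mural and fibroblast sums did not. The part of these cells in the split was not tested.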
